A study of Arabidopsis thaliana x Arabidopsis lyrata and Arabidopsis thaliana x Arabidopsis halleri with 18 samples.

Results

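The data describe 45 of 16419 genes: those whose *Arabidopsis thaliana* allele had far higher deposited values than the other parent's allele in both of 2 F1 hybrids. For each plant, r is the log2 of the second allele's deposited value over the thaliana allele's value, so an r of -2 means that the thaliana allele was 4-fold higher. A gene was taken when its mean r was -1.5 or less over the 9 plants of each hybrid, when r was below 0 in all 18 plants, and when the mean allele sum was 30 or more in each hybrid. The genes were thus chosen by their allele ratios and a minimum sum, and every ratio below is a description with no test of the lead itself. How reads were divided between the alleles was not given, and its part in the ratios was not tested.

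The plants were F1 hybrids of Col-0 with MN47 (labelled as a cross with *A. lyrata*) or of Col-0 with h2.2 (labelled as a cross with *A. halleri*). All were 4 weeks old and grown at 22 °C with 16 h light and 8 h dark. They were sampled under standard conditions, after 1 h at 4 °C in dim light, or after 1 h of dehydration off the agar at 22 °C in dim light. Dim light was named for both treatments and not for standard plants, so its part cannot be told apart from that of cold or dehydration. There were 6 groups of 3 libraries, with 1 plant per library. The labels call standard samples leaf samples but name the whole aerial part as the material, and they give no time of day. File headers name *A. halleri* for the second allele of the lyrata-labelled plants, and *A. lyrata* for that of the halleri-labelled plants. Plants are thus called lyrata-labelled and halleri-labelled, and the second allele the non-thaliana allele. By its title, the study concerned divergence of stress-responsive cis-regulation.

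In an F1 hybrid both parental copies of a gene meet the same transcription factors, so a lasting difference between them is usually assigned to sequence linked to each copy (cis-regulation, or RNA stability). Under cold or water loss *A. thaliana* is known to switch on early transcription factors and abscisic acid signalling, and many of its early-induced genes also follow the circadian clock.

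Values are scaled read numbers: the authors' values, less the 1 that each carries, were used for the allele sum. Per library the deposited values, with that 1 still in them, summed to between 1524104 and 1531268. In 5 of the 6 dehydrated plants, 4 to 38 of the whole numbers from 1 to 100 were never taken, as happens when a shallower library is scaled up. Lower depth thus went with dehydration, and its part in the dehydration results was not tested. Among the libraries, 3 stood apart: replicate 1 of the lyrata-labelled standard plants by its TMM scaling factor of 0.7724, replicate 2 of the lyrata-labelled dehydrated plants by a thaliana share of 61.27% of all reads, and replicate 1 of the halleri-labelled cold plants by a TMM factor of 1.17. Leaf marker genes summed to between 8499 and 62487 per plant, flower markers to at most 38.1, and root markers to between 12.1 and 114. Fewer cells of a type and less RNA per cell cannot be told apart in such bulk samples.

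Promoters of the genes whose total RNA rose with a treatment and passed the test are shown first, because the account of the treatments turns on them. Each is the 250 bases before the annotated start of the *A. thaliana* gene, read 5′ to 3′ on the gene's strand from RefSeq TAIR10.1. Capitals mark letters searched for on both strands: ACGTGGC or ACGTGTC (abscisic acid response element), CCGAC (core of the dehydration response element), CACGTG (G-box), AAATATCT (evening element of clock-controlled genes), TTGAC (W-box core) and TATAAA. The G-box overlaps the abscisic acid response element in many matches. The non-thaliana promoters were not used here.
LUX: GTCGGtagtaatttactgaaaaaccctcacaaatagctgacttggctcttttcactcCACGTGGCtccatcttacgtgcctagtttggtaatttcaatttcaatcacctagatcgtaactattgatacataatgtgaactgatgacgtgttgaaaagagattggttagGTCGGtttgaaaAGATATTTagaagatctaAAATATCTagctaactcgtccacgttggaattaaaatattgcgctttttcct
MEE14: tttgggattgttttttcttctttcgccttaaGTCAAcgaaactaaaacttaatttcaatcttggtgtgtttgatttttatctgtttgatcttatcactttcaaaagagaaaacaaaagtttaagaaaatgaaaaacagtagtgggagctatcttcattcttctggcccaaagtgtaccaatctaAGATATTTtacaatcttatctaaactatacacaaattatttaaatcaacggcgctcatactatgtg
AT5G54940: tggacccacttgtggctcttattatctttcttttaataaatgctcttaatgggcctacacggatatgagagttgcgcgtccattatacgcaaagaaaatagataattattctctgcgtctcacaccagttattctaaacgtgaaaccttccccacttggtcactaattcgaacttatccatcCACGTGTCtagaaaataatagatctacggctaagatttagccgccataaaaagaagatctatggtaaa
LRR XI-23: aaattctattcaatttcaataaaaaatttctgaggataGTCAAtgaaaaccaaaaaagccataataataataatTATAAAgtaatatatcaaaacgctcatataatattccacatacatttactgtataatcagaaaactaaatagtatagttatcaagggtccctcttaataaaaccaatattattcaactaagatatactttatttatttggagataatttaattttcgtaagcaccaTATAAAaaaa
AT2G25250: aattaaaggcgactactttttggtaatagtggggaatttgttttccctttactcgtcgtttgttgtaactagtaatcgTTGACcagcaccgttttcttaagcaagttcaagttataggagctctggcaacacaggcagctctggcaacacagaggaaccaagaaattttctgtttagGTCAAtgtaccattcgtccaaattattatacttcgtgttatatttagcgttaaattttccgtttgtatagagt

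These windows lie at chr3:17182792-17183041 (plus strand) for LUX, chr2:6922162-6922411 (minus) for MEE14, chr5:22309454-22309703 (minus) for AT5G54940, chr1:3251848-3252097 (plus) for LRR XI-23 and chr2:10753352-10753601 (plus) for AT2G25250. LUX holds a G-box within an abscisic acid response element, a pair of CCGAC cores and 2 evening elements, and MEE14 holds 1 evening element. AT5G54940 holds a G-box joined to an abscisic acid response element. Over the 45 genes, the evening element was in 5 promoters (11.1%), against 5.05% of the 7251 annotated genes at the same minimum sum. The abscisic acid response element was in 6 (13.3%, against 8.44%) and the G-box in 6 (13.3%, against 8.18%), with both in 5. The dehydration response core was in 4 (8.89%, against 13.7%), the W-box core in 22 (48.9%, against 43.9%) and TATAAA in 25 (55.6%, against 45.5%). A match is a run of letters and no more.

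The lead of the thaliana allele was about 4-fold in a typical gene of the set. The median of the genes' mean r was -2.02 in lyrata-labelled and -2.17 in halleri-labelled plants. Of 810 values, 748 were below -1, and 16 genes were below -1 in every plant. The single values ran from -8.18 (BCB) to -0.04 (AT4G32590). Mean r was -3 or less for 11 genes in lyrata-labelled plants, for 10 in halleri-labelled plants, and for 4 in both. The thaliana allele took 79.78% to 89.9% of the genes' summed reads in lyrata-labelled plants and 82.55% to 87.49% in halleri-labelled plants. Over the 7255 genes at the minimum sum it took 49.48% to 51.55% in 17 plants and 61.73% in lyrata-labelled dehydration replicate 2. The mirrored rule, with the non-thaliana allele ahead, took 77 genes.

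**Figure D1:**
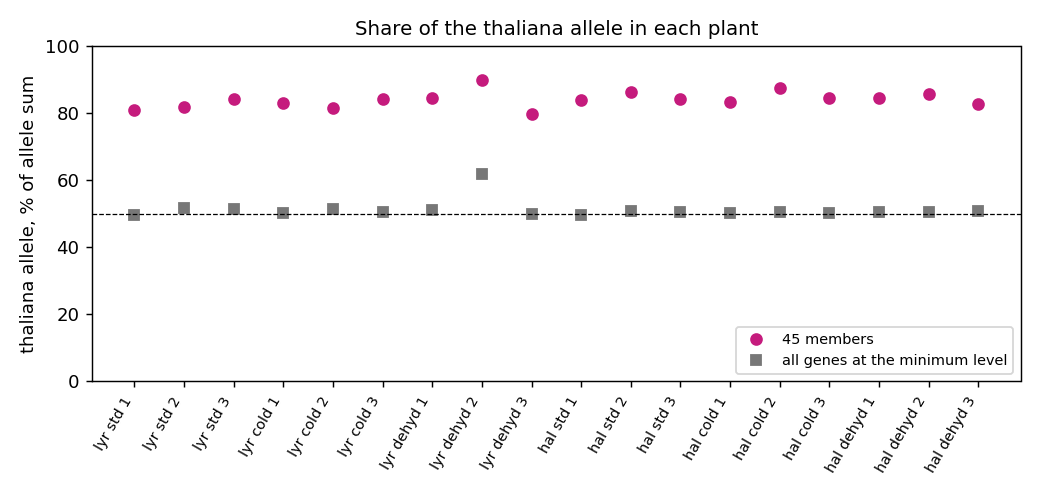
Share of the thaliana allele (percent of both alleles, vertical axis) in each plant, for the 45 genes (circles) and for all 7255 genes at the minimum sum (squares), with a dashed line at 50%. The 45 genes sat between 79.78% and 89.9%, and all genes stood at 61.73% in 1 plant and near 50% in the others.

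The non-thaliana allele was seldom without reads. It was above 0 in all 18 plants for 31 genes, and no gene had it at 0 in all 9 plants of a hybrid. Closest to none was LRR XI-23, a leucine-rich receptor-like kinase. Its non-thaliana value was 0 in 7 halleri-labelled plants and 1 in the other 2, with thaliana values of 41 to 182. In lyrata-labelled plants the non-thaliana allele gave 1 to 17 and the thaliana allele 13 to 621.

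**Figure D2:**
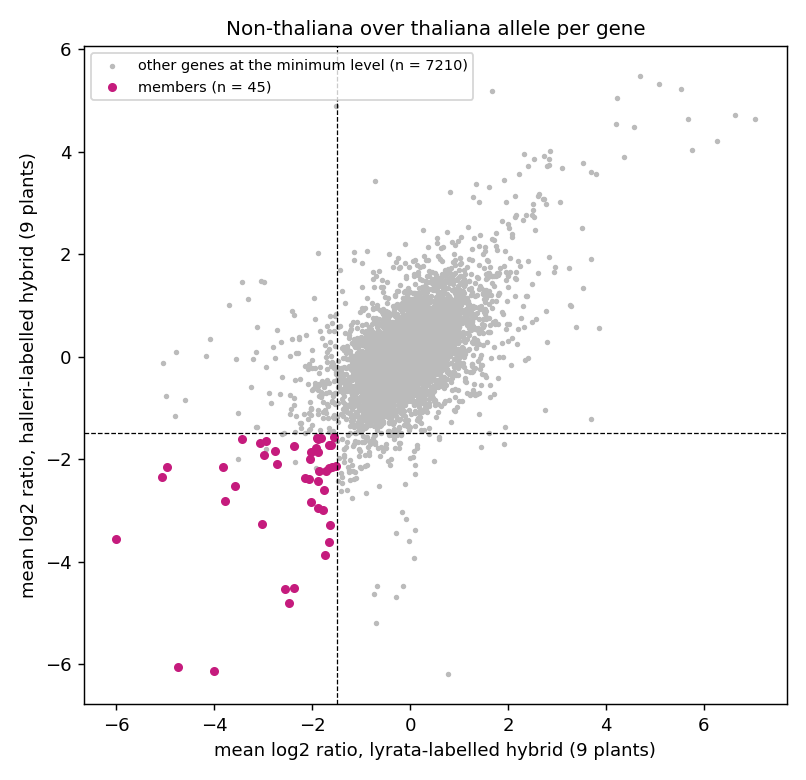
Mean r over 9 plants in the lyrata-labelled hybrid (horizontal axis, log2) against that in the halleri-labelled hybrid (vertical axis, log2), for the 45 genes (coloured) and 7210 other genes at the minimum sum (grey), with dashed lines at -1.5. The 45 genes fill the lower left corner, from which the rule took them, and run from BCB at -6.00 on the horizontal axis to LRR XI-23 at -6.13 on the vertical axis.

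Between the hybrids the size of the lead differed from gene to gene. Mean r was lower in lyrata-labelled plants for 21 genes and in halleri-labelled plants for 24. Pearson's correlation of the mean r across the 45 genes was 0.323, against 0.594 across the 7255 genes. Both are across genes that share the same libraries, and the rule cut off the range. Ranges of the 9 plants did not overlap for 1 gene, against 3.75% of the 7255 genes in either direction. That gene was ADG1, a subunit of ADP-glucose pyrophosphorylase, the enzyme that commits glucose to starch. In lyrata-labelled plants the ratio of ADG1 lay between -5.06 and -2.59, with a median thaliana value of 278 and a median non-thaliana value of 18. In halleri-labelled plants it lay between -2.52 and -1.62.

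**Figure D3:**
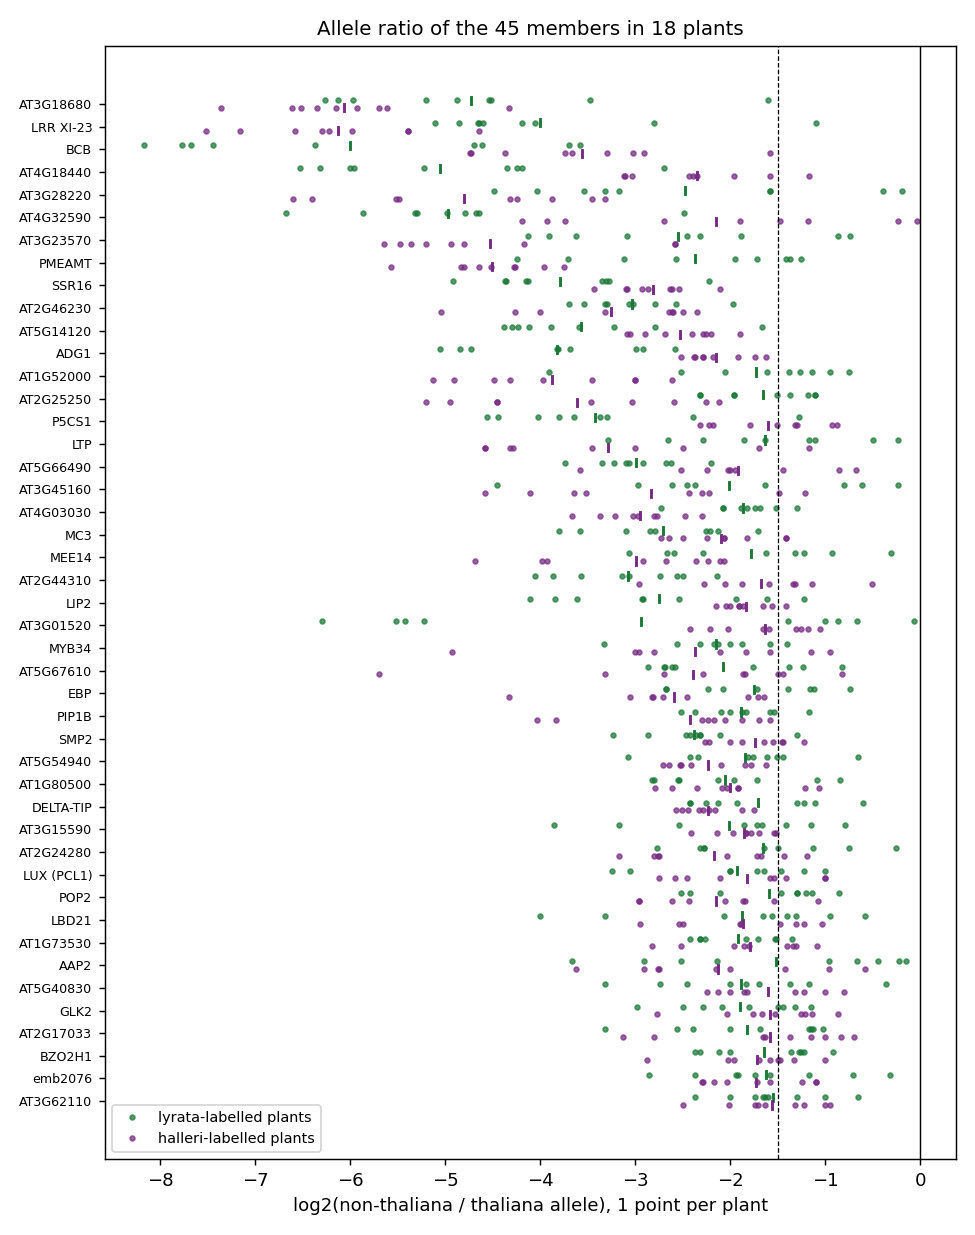
r of each of the 45 genes (rows) in each plant (1 point per plant, horizontal axis in log2) with the mean of each hybrid as a short bar, and dashed and full lines at -1.5 and 0. All points lie left of 0, as the rule requires, and AT3G01520 shows lyrata-labelled plants in separate clusters.

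Of the 10 genes with the lowest mean r over both hybrids, 4 were at -3 or less in each: AT3G18680, LRR XI-23, BCB and AT2G46230. AT3G18680, annotated as an amino acid kinase, stood at -4.74 ± 1.48 in lyrata-labelled and -6.06 ± 0.84 in halleri-labelled plants (SD, n = 9). Its median thaliana value was 117 and 97, against a median non-thaliana value of 3 and 0. In both hybrids almost all reads of this gene were assigned to the thaliana copy, at 96.1% and 99.2%. BCB, a blue copper-binding protein of the cell surface, stood at -6.00 ± 1.86 and -3.56 ± 1.01 (SD, n = 9). In lyrata-labelled plants its non-thaliana value was 0 in 6 plants and at most 4, beside thaliana values of 11 to 1024. In halleri-labelled plants the non-thaliana allele of BCB was read in 8 of 9 plants, at up to 75. AT2G46230, with a PIN domain (a fold found in RNA nucleases), stood at -3.03 ± 0.53 and -3.26 ± 0.96 (SD, n = 9), close to each other in the 2 hybrids.

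The other 6 of these genes leaned toward 1 hybrid in their means. AT4G18440, an L-aspartase-like protein, had a mean r of -5.06 in lyrata-labelled and -2.35 in halleri-labelled plants. AT4G32590, a 2Fe-2S ferredoxin-like protein, had -4.97 and -2.16. SSR16, a ribosomal protein of the small subunit, had -3.79 and -2.82. The order was the other way for AT3G28220, a TRAF-like protein, at -2.48 and -4.81. AT3G23570, an alpha/beta hydrolase, had -2.56 and -4.53. PMEAMT, a methyltransferase of phosphocholine synthesis, had -2.38 and -4.52. None of these 6 genes had separate ranges in the hybrids.

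Plants of 1 group could differ widely in r. For AT3G01520, annotated as an adenine nucleotide alpha hydrolase-like protein, lyrata-labelled standard plants had r of -1, -0.06 and -6.30. Its cold plants had -1.39, -5.43 and -5.23, and its dehydrated plants -5.52, -0.67 and -0.87. The 9 plants thus fell at -1.39 or above (5 plants) or at -5.23 or below (4 plants), and each treatment held both kinds. In the 4 low plants the non-thaliana value was 0 to 2, and in the other 5 it was 17 to 73. In halleri-labelled plants the same gene lay between -2.43 and -1.06. This gene overlaps another gene on the opposite strand.

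At the edge of the rule the genes shade into their neighbours. Just inside were AAP2, a phloem amino acid permease, with the higher of its hybrid means at -1.52, AT3G62110, a pectin lyase-like protein (-1.55), GLK2 (-1.58) and AT2G17033, a pentatricopeptide repeat protein (-1.59). Just outside were CCT2 (-1.4985), ATP-PRT2 (-1.4981), AT3G18215 (-1.4978) and AT4G00560 (-1.47).

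By annotated function the set was mixed. RNA-binding or pentatricopeptide repeat proteins made up 6 genes (13.3%, against 3.53% of the 7251 genes): AT2G46230, SMP2 (a splicing factor), AT1G73530, AT2G17033, AT3G15590 and emb2076. Transcription factors made up 5 (11.1%, against 4.48%): GLK2, EBP, LBD21, BZO2H1 and MYB34. LUX is a further transcription factor, which its annotated name places among 9 genes of other kinds. Transporters or channels made up 4 (8.89%, against 4.87%), hydrolases or proteases 4 (8.89%, against 8.69%) and transferases 4 (8.89%, against 4.99%). The classes of photosynthesis or chloroplast proteins, heat shock proteins and cytochromes P450 held none, against 2.04%, 1.27% and 0.359%. Classes went by words in the annotated description, so a member of another class may still act in the chloroplast. These shares are counts of a few genes and were given no test.

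The genes lay on all 5 chromosomes, with 6, 9, 13, 6 and 11 on chromosomes 1 to 5, and no member was next to another. These were 13.3%, 20.0%, 28.9%, 13.3% and 24.4% of the members, against 25.6%, 15.3%, 20.3%, 14.8% and 24.0% of the 7251 genes. Their transcripts had a median of 1622 bases (1717 over the 7251 genes) and 4 exons (6 over the 7251). GC content of the gene was 38.6% in the median, against 38.8%. Another annotated gene overlapped 12 of the 45 (26.7%, against 34.5% of the 7251 genes), and 11 of those had it on the opposite strand. The library kit did not mark strand, so reads of LUX, P5CS1, DELTA-TIP, POP2, MC3, AT2G46230, AT3G18680, AT3G23570, AT3G01520, AT5G14120 and emb2076 cannot be told apart from those of their partners where they overlap. Another locus matched at 90% identity or more over at least 100 bases for 5 genes, of which AT5G40830 matched over 845 bases (91.7%). Values of those 5 genes are uncertain where reads could be split.

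The RNA-binding and repeat proteins had mild leads apart from AT2G46230. SMP2 had a mean r of -2.38 in lyrata-labelled and -1.75 in halleri-labelled plants, AT3G15590 -2.02 and -1.86, and AT1G73530 -1.92 and -1.79. AT2G17033 and emb2076 stood near the limit of the rule, at -1.83 and -1.59, and at -1.62 and -1.73.

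Transcription factors among the members covered leaf development, ethylene and defence metabolism. GLK2 promotes chloroplast development, EBP is an ethylene response factor linked to low oxygen, and MYB34 activates indole glucosinolate synthesis. BZO2H1 is a bZIP factor and LBD21 a LOB-domain protein. GLK2 had a thaliana value of 48 to 546 (median 282) in lyrata-labelled plants, beside a non-thaliana value of 8 to 158 (median 96). In halleri-labelled plants its medians were 95 and 27. EBP had a mean r of -1.76 and -2.60, MYB34 -2.15 and -2.37.

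Channels and transporters included a pair of aquaporins, PIP1B of the plasma membrane and DELTA-TIP of the vacuole membrane, which carry water. The scaled sum of PIP1B was 23.4, 1211 and 66.3 in lyrata-labelled standard plants, and 1302, 9.73 and 949 in the cold. The halleri-labelled plants gave 17.4, 1218 and 1011 under standard conditions. In the cold they gave 22.3, 176 and 1169, and after dehydration 1443, 13.9 and 403. Standard and cold plants thus lay on both sides of each other, as did halleri-labelled standard and dehydrated plants. After dehydration the lyrata-labelled plants gave 1789, 1467 and 1613, all above their standard plants. That log2 change of 3.66 was the largest of the members in that comparison, but it did not pass the test. Across all of these plants r of PIP1B stayed between -4.04 and -1.17. PIP1B has close relatives in the aquaporin family (89% identity over 100 bases), so its reads may be split. DELTA-TIP gave 2623, 1364 and 1982 in lyrata-labelled standard plants, 118, 878 and 195 in the cold and 117, 147 and 326 under dehydration. Both treated groups of lyrata-labelled plants lay below all standard plants, but the log2 changes of -2.81 ± 0.88 and -3.42 ± 0.88 (SE) missed the threshold (limma adjusted p of 0.133 and 0.077). In halleri-labelled plants DELTA-TIP gave 945, 49.0 and 160 under standard conditions and 256, 1243 and 241 in the cold. Under dehydration they gave 78.1, 102 and 165. Both treated groups there overlapped the standard plants. AT5G14120 is a major facilitator transporter, with a mean r of -3.58 and -2.53.

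Metabolic enzymes of the set reach starch, proline and GABA. P5CS1 makes the first step of proline synthesis and is a classical gene of drought and abscisic acid. Its mean r was -3.43 ± 1.04 in lyrata-labelled and -1.61 ± 0.55 in halleri-labelled plants (SD, n = 9). Its scaled sum was 41.6, 150 and 25.1 in lyrata-labelled standard plants, and 72.4, 67.2 and 60.7 after dehydration. The halleri-labelled values were 127, 56.3 and 86.0, and 80.2, 207 and 97.8. The groups overlapped, and its total did not pass the test in any treatment comparison (limma adjusted p between 0.433 and 0.964). POP2, the GABA transaminase, had a mean r of -1.59 and -2.15. LIP2, a lipoyltransferase of mitochondria, had -2.75 and -1.84. MC3, a metacaspase (a protease of cell death), had -2.72 and -2.10.

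The genes of unlike or unclear function ranged between these. AT1G52000, a mannose-binding lectin, had a mean r of -1.73 in lyrata-labelled and -3.88 in halleri-labelled plants. AT2G44310, a calcium-binding EF-hand protein, had -3.07 and -1.68. AT5G66490, of unknown function, had -2.99 and -1.92 with thaliana values of only 22 to 52 in lyrata-labelled plants. AT4G03030, a kelch repeat protein, had -1.87 and -2.96. The remaining AT3G45160, AT5G67610, AT1G80500 and AT2G24280 had means between -2.84 and -1.66.

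Total RNA, the sum of both alleles, entered the rule through its minimum of 30, which was taken over all treatments. In at least 1 hybrid 4 members met that minimum only through 1 group: LUX and MYB34 through the cold plants, and LTP and AT5G40830 through the standard plants. LUX had a mean sum of 36.4 in lyrata-labelled and 31.1 in halleri-labelled plants, but 16.8 and 10.3 without the cold plants. LTP met the minimum in lyrata-labelled plants without any 1 group, but in halleri-labelled plants missed it without the standard plants. A gene taken in this way had to be high in that group, so counts of calls over the 45 genes are descriptions and nothing is read from their share against the background. Over the other 41 members the calls were 3 (cold) and 0 (dehydration) in lyrata-labelled plants and 0 and 1 in halleri-labelled plants. In that order, 0.881%, 0.421%, 0.75% and 2.97% of the 13058 genes tested were called.

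The members took 0.47% to 0.594% of the allele sum of a library in lyrata-labelled standard plants and 0.831% to 1.05% in the cold. In halleri-labelled plants the shares were 0.538% to 0.844% and 0.657% to 0.985%. The lyrata-labelled ranges did not overlap and the halleri-labelled ones did. Without MEE14 and AT5G54940 the lyrata-labelled shares were 0.447% to 0.569% and 0.566% to 0.657%, which overlapped. Under dehydration the shares were 0.602% to 0.755% and 0.501% to 0.672%.

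After 1 h of cold, 5 members passed the test in lyrata-labelled plants, 4 higher and 1 lower. The background was 0.881% of 13058 genes tested (0.636% higher and 0.245% lower), and 0.91% of the 7255 genes at the minimum sum. LUX, MEE14, AT5G54940 and LRR XI-23 rose and LTP fell. Of the 45 genes, 33 had a positive and 12 a negative change, with a median log2 change of 0.51, against 0.07 over the 7255 genes. In halleri-labelled plants 1 member, LUX, passed the test, where the background was 0.75% (0.882% at the minimum sum). There 27 changes were positive and 18 negative, with a median of 0.22, against 0.01. All treatment comparisons within a hybrid share its 3 standard plants.

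LUX (PCL1, AT3G46640), a transcription factor of the evening complex of the circadian clock, had the largest rise of the members in the cold in both hybrids. As given above, it met the minimum sum only through its cold plants, so being a member required it to be high there, and its rise is a description. It lies at chr3:17183042-17186959. Its scaled sum was 3.90, 2.85 and 1.00 in lyrata-labelled standard plants, 61.3, 84.9 and 66.2 in the cold, and 43.2, 26.1 and 27.0 under dehydration. The halleri-labelled plants gave 1.16, 0.908 and 1.79 under standard conditions, 123, 32.3 and 44.6 in the cold, and 11.9, 41.8 and 5.32 under dehydration. Every treated plant lay above every standard plant of either hybrid. The log2 change in the cold was 4.03 ± 0.61 (SE) in lyrata-labelled plants (limma adjusted p = 0.00447) and 4.16 ± 0.61 in halleri-labelled plants (limma adjusted p = 0.00286). Under dehydration it was 2.91 ± 0.61 (adjusted p = 0.0439) and 2.33 ± 0.61 (adjusted p = 0.0415), by the same limma fit. The responses of the hybrids differed by 0.13 ± 0.87 in the cold and -0.58 ± 0.87 under dehydration (interaction, limma adjusted p of 0.99 and 0.866). The cold rise passed the test in every fit with 1 library left out, but in halleri-labelled plants it missed the threshold when only the groups compared were fitted (limma adjusted p = 0.0803). In that fit the dehydration rises missed it too (limma adjusted p of 0.216 and 0.153). In the fits that left out each library in turn, the dehydration rises did not all pass. The change against standard plants is on a scale with 2 added, which understates the fold of so low a value. The sampling time was not given, and its part in the LUX result was not tested. The part of the dim light shared by both treatments was not tested either.

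Allele by allele, both parental copies of LUX had higher values in the cold. In lyrata-labelled standard plants the thaliana value was 3, 3 and 1 and the non-thaliana value 0 in each. In the cold these were 46, 71 and 55 beside 14, 25 and 16. In halleri-labelled standard plants the thaliana value was 1, 1 and 2, again with non-thaliana values of 0, and the cold values were 107, 26 and 38 beside 36, 3 and 8. The ratio under standard conditions thus rested on 1 to 3 scaled reads and on the 1 in the deposited values. In the cold r was -1.65, -1.47 and -1.72 in lyrata-labelled plants and -1.55, -2.75 and -2.12 in halleri-labelled plants, the lowest of which rests on a non-thaliana value of 3.

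**Figure D4:**
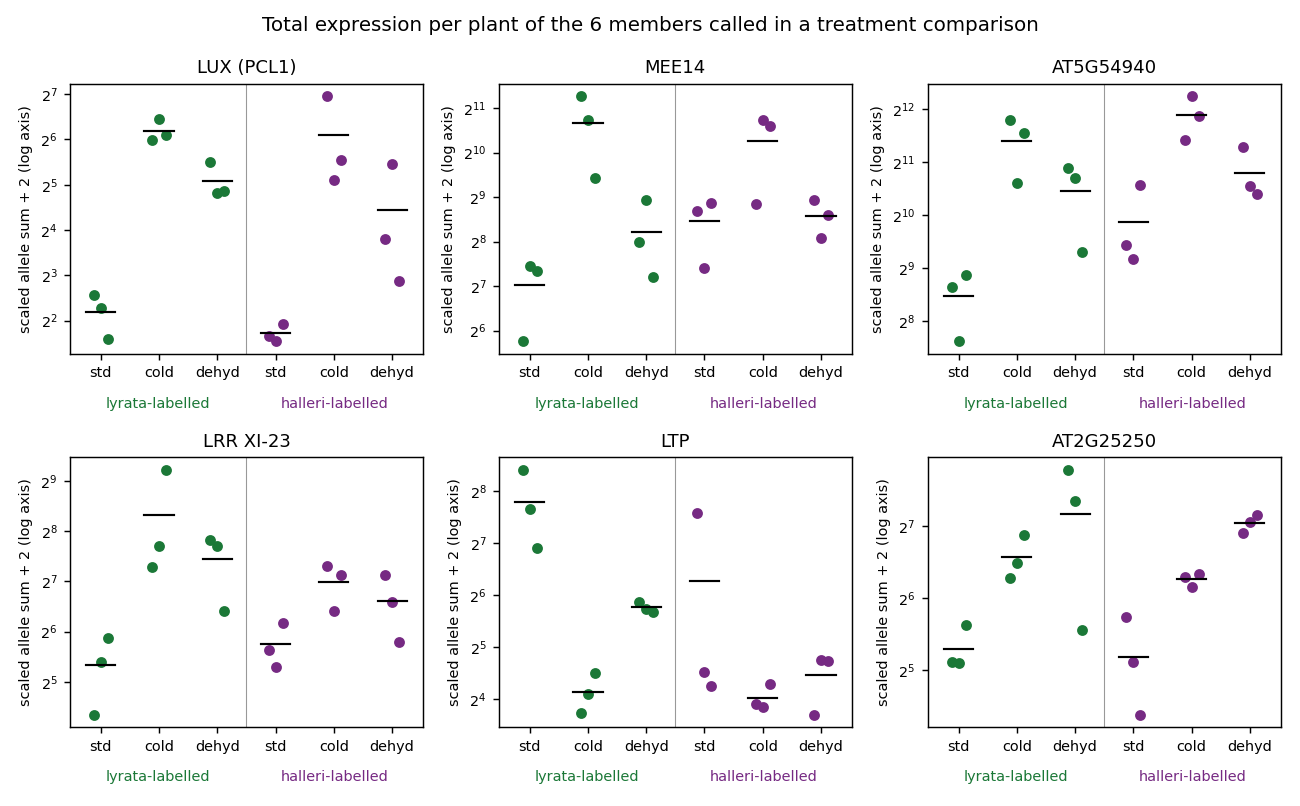
Scaled allele sum plus 2 (log2 axis) per plant for the 6 genes that passed a treatment comparison, with standard, cold and dehydrated plants of the lyrata-labelled (left of the line) and halleri-labelled hybrid (right). Points are plants and bars are means of 3; LUX lies above all of its standard plants in every treated plant, and LTP falls in the cold in lyrata-labelled plants.

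MEE14 (AT2G15890), named after an embryo arrest of its mutants, gave 52.0, 172 and 161 in lyrata-labelled standard plants and 2475, 1709 and 691 in the cold. The groups did not overlap, and the log2 rise was 3.64 ± 0.66 (SE, limma adjusted p = 0.013). The halleri-labelled standard plants gave 413, 169 and 467, and 456, 1693 and 1547 in the cold. These groups overlapped and the change of 1.73 ± 0.66 missed the threshold (limma adjusted p = 0.226). The difference between the hybrids' responses was -1.91 ± 0.93 (limma adjusted p = 0.65). In lyrata-labelled cold plants the non-thaliana allele gave 832, 861 and 181 beside thaliana values of 1590, 1071 and 561.

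AT5G54940, a translation initiation factor of the SUI1 family, helps ribosomes to choose the start codon. It gave 399, 194 and 467 in lyrata-labelled standard plants and 3546, 1551 and 3012 in the cold. The groups did not overlap, and it rose by 2.94 ± 0.55 on the log2 scale (SE, limma adjusted p = 0.0176). In halleri-labelled plants it gave 692, 577 and 1527, and 2753, 4889 and 3767 in the cold. There all cold plants lay above all standard plants too, with a change of 2.12 ± 0.55 that missed the threshold (limma adjusted p = 0.0694).

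LRR XI-23 gave 18.2, 39.8 and 56.3 in lyrata-labelled standard plants and 153, 207 and 594 in the cold. It rose by 2.87 ± 0.59 (SE, limma adjusted p = 0.0276), with no overlap. In halleri-labelled plants the change was 1.25 ± 0.59 (limma adjusted p = 0.352). Almost all reads of LRR XI-23 were assigned to the thaliana copy in both hybrids, as given above.

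LTP (AT2G15050), a lipid transfer protein that carries lipids to the cell wall, was the only member called lower. Its scaled sum was 339, 199 and 119 in lyrata-labelled standard plants and 11.2, 15.0 and 20.5 in the cold. The groups were far apart, with a log2 change of -3.56 ± 0.67 (SE, limma adjusted p = 0.0178). In halleri-labelled standard plants it gave 188, 20.9 and 17, and in the cold 12.9, 12.3 and 17.5, so that 1 standard plant stood high and the groups overlapped. The change there was -1.44 ± 0.67 (limma adjusted p = 0.341).

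Without lyrata-labelled standard replicate 1, lyrata-labelled dehydration replicate 2 and halleri-labelled cold replicate 1, the cold count in lyrata-labelled plants was 3 (LUX, MEE14 and AT5G54940). Then LRR XI-23 and LTP missed the threshold, with limma adjusted p of 0.0968 and 0.0821. When only the groups compared were fitted, LUX alone kept its call in lyrata-labelled cold plants. LTP (limma adjusted p = 0.052), MEE14 (0.0862), AT5G54940 (0.0888) and LRR XI-23 (0.136) then missed the threshold. Leaving out single libraries ended the call of LRR XI-23 (standard replicate 1 or 2, cold replicate 2 or 3), of LTP (standard replicate 1, cold replicate 1 or 2), of MEE14 (cold replicate 1 or 2) and of AT5G54940 (standard replicate 2, cold replicate 1 or 3).

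After 1 h of dehydration LUX was the 1 member called in lyrata-labelled plants, with a background of 0.421% (0.455% at the minimum sum). In halleri-labelled plants 2 genes were called, LUX and AT2G25250, with a background of 2.97% (3.0% at the minimum sum). Positive and negative changes numbered 30 and 15 in lyrata-labelled plants (median 0.58, against 0.03) and 24 and 21 in halleri-labelled plants (median 0.11, against -0.03). The call of LUX in lyrata-labelled plants ended without standard replicate 1, 2 or 3 or dehydration replicate 1 or 2. For the halleri-labelled plants it ended without standard replicate 2 or 3 or dehydration replicate 1 or 2.

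AT2G25250, annotated as a serine/arginine repetitive matrix-like protein, gave 51.1, 32.7 and 18.8 in halleri-labelled standard plants and 117, 130 and 140 after dehydration. All 3 dehydrated plants lay above all standard plants, with a log2 rise of 1.96 ± 0.53 (SE, limma adjusted p = 0.0477). The call ended without standard replicate 2 or 3, or without any 1 of the 3 dehydrated plants, and when only the groups compared were fitted (limma adjusted p = 0.0863). In lyrata-labelled plants it gave 32.5, 32.3 and 47.2, and 217, 160 and 45.3 after dehydration. There the change was 1.62 ± 0.53 (limma adjusted p = 0.123), with 1 dehydrated plant among the standard ones.

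BCB had large changes that missed the threshold. Its scaled sum was 63.7, 11.4 and 25.1 in lyrata-labelled standard plants and 626, 1031 and 10.6 after dehydration. The halleri-labelled values were 186, 1.82 and 158, and 752, 550 and 264. All dehydrated halleri-labelled plants lay above all standard plants, but the log2 change of 3.31 ± 1.37 (SE) had a limma adjusted p of 0.188. GLK2 gave 421, 98.1 and 43.9 in halleri-labelled standard plants and 874, 474 and 1244 after dehydration, a change of 2.69 ± 0.75 (limma adjusted p = 0.0548). SSR16 gave 5813, 2490 and 2452, and 1250, 991 and 1137 after dehydration, a change of -1.55 ± 0.51 (limma adjusted p = 0.0999). Neither passed, although their groups did not overlap.

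**Figure D5:**
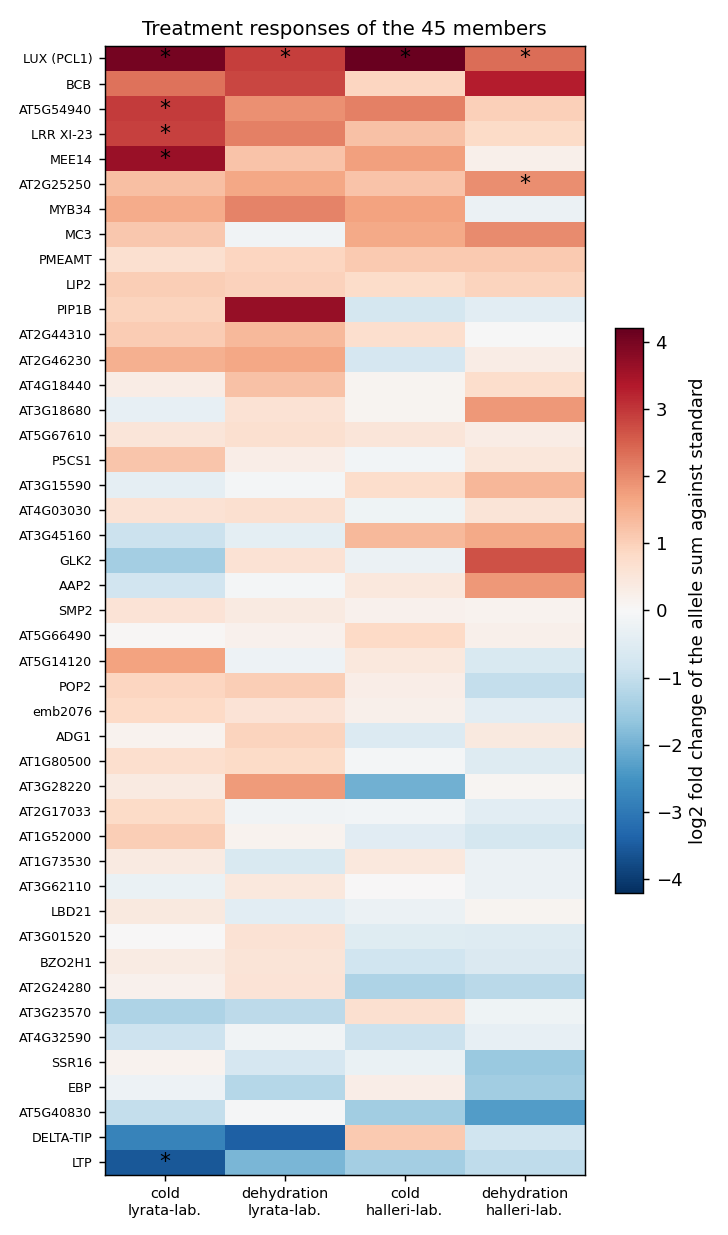
Log2 change of the allele sum against standard plants (colour, red higher and blue lower) for the 45 genes (rows) in 4 comparisons (columns: cold and dehydration in each hybrid), with genes in order of their mean change and stars on those that passed the limma test. LUX is starred in all 4 columns, and most other genes in none.

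Between the hybrids under standard conditions no member passed the test (0 at a limma adjusted p below 0.05, 9 at an unadjusted p below 0.05), where the background was 1.94% (1.38% at the minimum sum). The changes closest to it were in DELTA-TIP, at -3.28 ± 0.88 (SE, halleri-labelled minus lyrata-labelled, limma adjusted p = 0.0609), and LTP, at -2.21 ± 0.67 (adjusted p = 0.0916). No member passed for a difference between the hybrids in the response to cold (0 by limma, 3 at an unadjusted p below 0.05, background 0.0153%) or to dehydration (0 by limma, 4 at an unadjusted p below 0.05, background 0.0%).

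The thaliana lead itself was then compared between treatments. The rule did not use this contrast, but it chose the members by the same r values. Its limit on the mean r was taken over all treatments of a hybrid, and r had to be below 0 in every plant. Both limits could keep out genes whose lead was lost in a treatment. The ratio tests of the members, here and in the next paragraph, are thus descriptions, and nothing is read from the number called. No member's ratio passed the test. In lyrata-labelled plants this was 0 by limma for cold (3 at an unadjusted p below 0.05) and for dehydration (7), where no gene of 11697 passed (0.0%). In halleri-labelled plants it was 0 for cold (7 at an unadjusted p below 0.05, background 0.978%) and for dehydration (12, background 2.05%). The median change over the members was -0.18, -0.24, -0.19 and 0.20 in that order. Over the 7255 genes at the minimum sum it was -0.05, -0.25, -0.02 and -0.02.

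Nearest to a call in halleri-labelled plants were MEE14 and LTP, with values closer to equal alleles than in standard plants, and LBD21. MEE14 had r of -3.93, -4.69 and -3.99 in standard plants and -2.11, -2.68 and -2.24 in the cold. These ranges did not overlap, with a change of 1.86 ± 0.45 (SE, limma adjusted p = 0.0872), and dehydration gave 1.75 ± 0.45 (adjusted p = 0.0774). LTP had -4.29, -4.58 and -4.32 in standard plants and -1.70, -1.17 and -2.50 in the cold, a change of 2.61 ± 0.56 (SE, limma adjusted p = 0.0678). LTP had few non-thaliana reads, 7, 0 and 0 in those standard plants. LBD21 had the opposite sign under dehydration, at -1.42 ± 0.34 (SE, limma adjusted p = 0.0663).

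Known stress genes were looked up among the members, which were 0.62% of the 7255 genes at the minimum sum. Of 21 abscisic acid and drought genes, 19 were in the files, 12 reached the minimum sum and 1, P5CS1, was a member. Of 12 cold regulators 8 were in the files and 6 reached the minimum, and of 16 cold and abscisic acid targets 8 and 7, with 0 members in either. After dehydration of halleri-labelled plants, 4 of 7 tested cold regulators rose, 4 of 8 targets rose and 5 of 18 drought genes rose, and none fell (medians 3.62, 2.32 and 1.70 on the log2 scale), where 2.97% of all genes tested were called. In lyrata-labelled plants 0, 1 and 2 rose and none fell (medians 2.26, 1.89 and 0.90 on the log2 scale), against 0.421% of all genes. In the cold the counts were 0, 0 and 1 in halleri-labelled plants, with none lower, against 0.75% of all genes. The medians there were 0.94, 0.52 and 0.93 on the log2 scale. For lyrata-labelled cold plants the counts were 0, 0 and 0, with none lower, against 0.881% of all genes. Their medians were 2.11, 0.46 and 0.59 on the log2 scale.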

How the data were processed

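RNA of 18 single plants was analysed from the authors' deposited files, which give a score per gene for each of 2 alleles, per the file headers. Judged by its values, each deposited score is a read number scaled to a near-equal library total and rounded, with 1 added, so exact depth is unknown and intervals for counting error were not given. TopHat2, SAMtools, DESeq2 and TAIR10 are named per the submitters' processing notes. The way reads were divided between alleles was not given in the sources used here. As scores are not counts, limma replaced a count test. The 1 was taken off each allele, sums were scaled by TMM factors (trims of 30% and 5%), and log2 of the scaled sum plus 2 was fitted with a mean per group (R 4.3.3, limma 3.58.1, eBayes with trend and robust). The test covered 13058 genes that reached a sum of 10 in 3 or more libraries. Ratios kept the 1, which pulls low genes toward equal alleles, and were fitted within a hybrid for genes with a mean sum of at least 10. P values are 2-sided, adjusted by Benjamini-Hochberg over all genes tested, and called below 0.05. Of 16419 genes, 16404 matched TAIR10.1, used for names, coordinates and promoters; other loci were sought with blastn 2.17.0+. The test was checked on simulated data. Genes were named by a rule (lowest ratios, highest sums, called genes, list genes, threshold neighbours and the leading genes of each functional class). AT3G01520, BCB, GLK2, LBD21 and DELTA-TIP were singled out after their values were seen. The members and lists were chosen with earlier results of these data known.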

Additional observations from a re-analysis of the deposited data

How the results depend on the processing

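LUX kept its cold call in lyrata-labelled plants under all 14 other settings. As LUX met the minimum sum only through its cold plants, its cold calls remain a description under any setting. In halleri-labelled plants its cold call ended only when the fit held just the groups compared (adjusted p = 0.0803, limma). No result changed direction. The number of member genes was 122 at a mean ratio of -1 or less, 17 at -2 or less and 17 at a sum of 100 or more; with 1 library left out it was 41 to 51, and with the 3 outlying libraries left out 45, of which 38 were shared.

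Members called in the cold in lyrata-labelled plants were 3 without those 3 libraries, 1 when only the groups compared were fitted and 2 to 5 with 1 library left out. For halleri-labelled cold plants the count was 0 with only the groups compared. For dehydrated lyrata-labelled plants it was 0 with 10 added before log2, with the replicate block, without those 3 libraries and with only the groups compared, 4 with library weights, and 0 to 6 with 1 library left out. For dehydrated halleri-labelled plants it was 0 as deposited without TMM scaling, with 10 added and with only the groups compared, 4 with library weights, and 0 to 3 with 1 library left out. Between the hybrids it was 2 with library weights and 0 to 2 with 1 left out (LTP and DELTA-TIP), and the cold interaction gave 0 to 2 with 1 left out. Ratio calls in halleri-labelled plants were 1 for cold (MEE14) and 2 for dehydration (MEE14 and LBD21) with a mean sum of at least 50, and 0 to 1 and 0 to 2 with 1 library left out. The number called over all genes moved with the setting too. Without TMM scaling it was 139, 60, 117 and 377, against 115, 55, 98 and 388 in the main fit. These are lyrata-labelled cold and dehydration, then halleri-labelled cold and dehydration. Nothing is thus read from the counts of members, and the cause of these changes was not tested.

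Plants of the same replicate number showed little shared deviation (correlations between -0.108 and 0.171), and the main fit did not pair them. Such correlations cannot exclude a pairing or a shared batch. With the replicate block 5, 0, 1 and 2 members were called (lyrata-labelled cold and dehydration, halleri-labelled cold and dehydration). The last 2 were LUX and AT5G40830, which was lower after dehydration. In halleri-labelled plants AT5G40830 met the minimum sum only through the standard plants, and LUX only through the cold plants. Their calls are thus descriptions. Where a fit left 2 plants in a group, these were assumed to vary like the other groups.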
